A study of Bos taurus with 36 samples.

Results

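The proteasome genes were taken as every protein-coding gene of the count table whose bovine RefSeq symbol starts with PSM, a letter from A to G and a number. The rule took 50 of 35092 genes. Of these, 48 encode parts of the proteasome or proteins that activate, inhibit or assemble it, namely 8 alpha and 11 beta subunits of the core particle (the 20S proteasome), 6 ATPases of the regulatory particle, 14 of its non-ATPase genes, 4 activators, 1 inhibitor and 4 assembly chaperones. The other 2, PSMC3IP and PSME3IP1, are named for binding a proteasome protein and are no subunits. The genes were followed in 3 organs (heart, gonads and liver) of male bovine fetuses collected at Day 42, in the blood of the heifers carrying them, and along fetal weight.

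The proteasome degrades proteins that carry a ubiquitin chain. Its core is a barrel of stacked alpha and beta rings with the cutting sites inside, and a regulatory particle on the end binds the chain, unfolds the protein with its ATPases and feeds it in. In leukocytes and under interferon, the subunits PSMB8, PSMB9 and PSMB10 take the places of the constitutive cutting subunits PSMB5, PSMB6 and PSMB7, which makes the immunoproteasome and changes the peptides offered to T cells. Nearly all other subunits are made in every nucleated cell and enter each particle in fixed proportions.

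The 10 fetuses are numbered by weight from fetus 1 (1.253 g) to fetus 10 (1.69 g). Every embryo was transferred at the age of 7 days. Heifers of the ET_D7 group, at Day 7 of their own cycle and thus in step with the embryo, carried fetuses 1 to 5, and those of the ET_D9 group, at Day 9, carried fetuses 6 to 10. The groups did not overlap in weight (1.253 to 1.37 g against 1.396 to 1.69 g), so transfer group and weight cannot be fully told apart. There were 9 heart libraries (fetus 7 not analysed here), 9 gonad libraries (without fetus 2), 8 liver libraries (without fetuses 6 and 7) and 10 maternal blood libraries, each labelled as 1 animal. The organ libraries were made with a poly(A) kit (TruSeq stranded mRNA) and the blood libraries with another (SMARTer stranded), so blood was never tested against an organ.

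Total counts per library lay between 18231089 and 40812354. The liver libraries of fetuses 1 and 2 differed at the median gene by less than the counting noise (the median chi-square over 14470 genes was 0.242 of the noise, against at least 1.93 in the other 144 pairs of libraries of 1 tissue), so they were counted as 1 liver sample, and the liver had 7. At 599 genes (4.14%), with 0 members among them, the 2 libraries still differed by over 3 SD of that noise. All 10 cardiac markers were far higher in the heart and all 10 hepatocyte markers in the liver. The gonad libraries were not dominated by gonad cells in their markers. The summed level of the 9 Sertoli markers was 105 to 177 CPM there and 230 to 397 CPM in the heart. CPM are counts scaled to library size, here over all organ libraries. Each sum was mostly 1 gene, so they do not compare Sertoli cells. GATA4 held 203 to 375 CPM in the heart and at most 0.122 CPM in the gonads. WT1 held 89.1 to 167 CPM in the gonads, where INHA reached 9.07 CPM and the rest less. The 10 kidney (nephron and mesonephros) markers summed to 360 to 469 CPM against 23.8 to 69.1 CPM in the heart. They summed to 119 to 280 CPM in the liver, of which CDH16 held 98.1 to 255 CPM. The 8 germ cell markers summed to 22.1 to 37 CPM against 8.07 to 14.8 CPM in the heart, of which KIT held 16.6 to 33.1 CPM and DND1 2.6 to 4.52 CPM, while NANOS3 reached at most 1.26 CPM and DDX4, DAZL, POU5F1, NANOS2 and TFAP2C at most 0.273 CPM each. How much of the gonad values below comes from mesonephros was not tested.

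PSMD13, a lid subunit of the regulatory particle, was at 0 counts in all 36 libraries. Its 8 nearest neighbours in the annotation were at 0 too, so the values say nothing about PSMD13 itself. PSMA8, the alpha subunit of spermatocytes, never passed 16 counts. The remaining 49 genes had a count in at least 1 organ library and were tested between organs. In bulk tissue, less RNA per cell and fewer cells of a type cannot be told apart. Levels were compared between libraries and not between genes, since no transcript lengths were used.

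Between the fetal organs, proteasome genes did not move as a block. Levels in this comparison are CPM scaled over all organ libraries by edgeR's TMM method, and a gene was called at a Benjamini-Hochberg adjusted p under 0.05 in edgeR's quasi-likelihood test. Against the gonads, 27 of 49 members were higher in the heart (55.1%, against 23.7% of all 25095 genes tested) and 8 were lower (16.3% against 23.4%). Against the liver, 15 were higher in the heart (30.6% against 26.9%) and 20 lower (40.8% against 30.4%). In the gonads, 10 were higher than in the liver (20.4% against 29.9%) and 26 lower (53.1% against 33.7%). Shares of all genes between organs, here and below, include genes with as little as 1 count and were not matched to members for level. A stricter minimum (8 or more organ libraries reaching 10 counts) kept 18098 genes. Of these, 6163 were higher and 6226 lower for heart over liver, and 5603 and 5581 for heart over gonads. The share of all genes was thus larger there, so small excesses such as 30.6% against 26.9% do not set the members apart. The median log2 difference of the members was 0.45 for heart over gonads, −0.06 for heart over liver and −0.52 for gonads over liver. Over all genes with a mean count of at least 10 the medians were −0.07, 0.01 and 0.02.

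These splits depend on the scale. When each library was scaled to its total of nuclear gene counts without TMM, the median of all genes itself moved by −0.48 for heart over gonads, 0.17 for heart over liver and 0.65 for gonads over liver, and the members called changed with it. For heart over gonads 15 were higher (30.6%, against 15.4% of all genes) and 14 lower (28.6% against 37%), for heart over liver 19 (38.8% against 30.5%) and 18 (36.7% against 27.2%), and for gonads over liver 21 (42.9% against 41.4%) and 16 (32.7% against 24%). DESeq2's size factors moved the median of both liver comparisons by −0.16. A change of scale shifts all genes nearly alike, so it leaves the distance between the members and the median gene in place by construction. On TMM that distance, to the median of genes with a mean count of at least 10, was 0.52 for heart over gonads, −0.07 for heart over liver and −0.54 for gonads over liver. The directions of the called member differences named below hold on both scales unless the sentence says otherwise. Fold differences and ranges are on TMM, and single genes outside the rule were read on TMM only.

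Taking both comparisons of an organ together, the liver was highest for 18 members (36.7%, against 23% of all genes) and lowest for 7 (14.3% against 18.9%). The heart was highest for 9 (18.4% against 11%) and lowest for 5 (10.2% against 8.3%). The gonads were highest for 3 (6.12% against 14.8%) and lowest for 19 (38.8% against 13.7%). On nuclear totals the gonads were highest for 10 (20.4% against 26.3%) and lowest for 8 (16.3% against 7.34%), and the liver highest for 14 (28.6% against 17.6%) and lowest for 15 (30.6% against 25%).

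**Figure D1:**
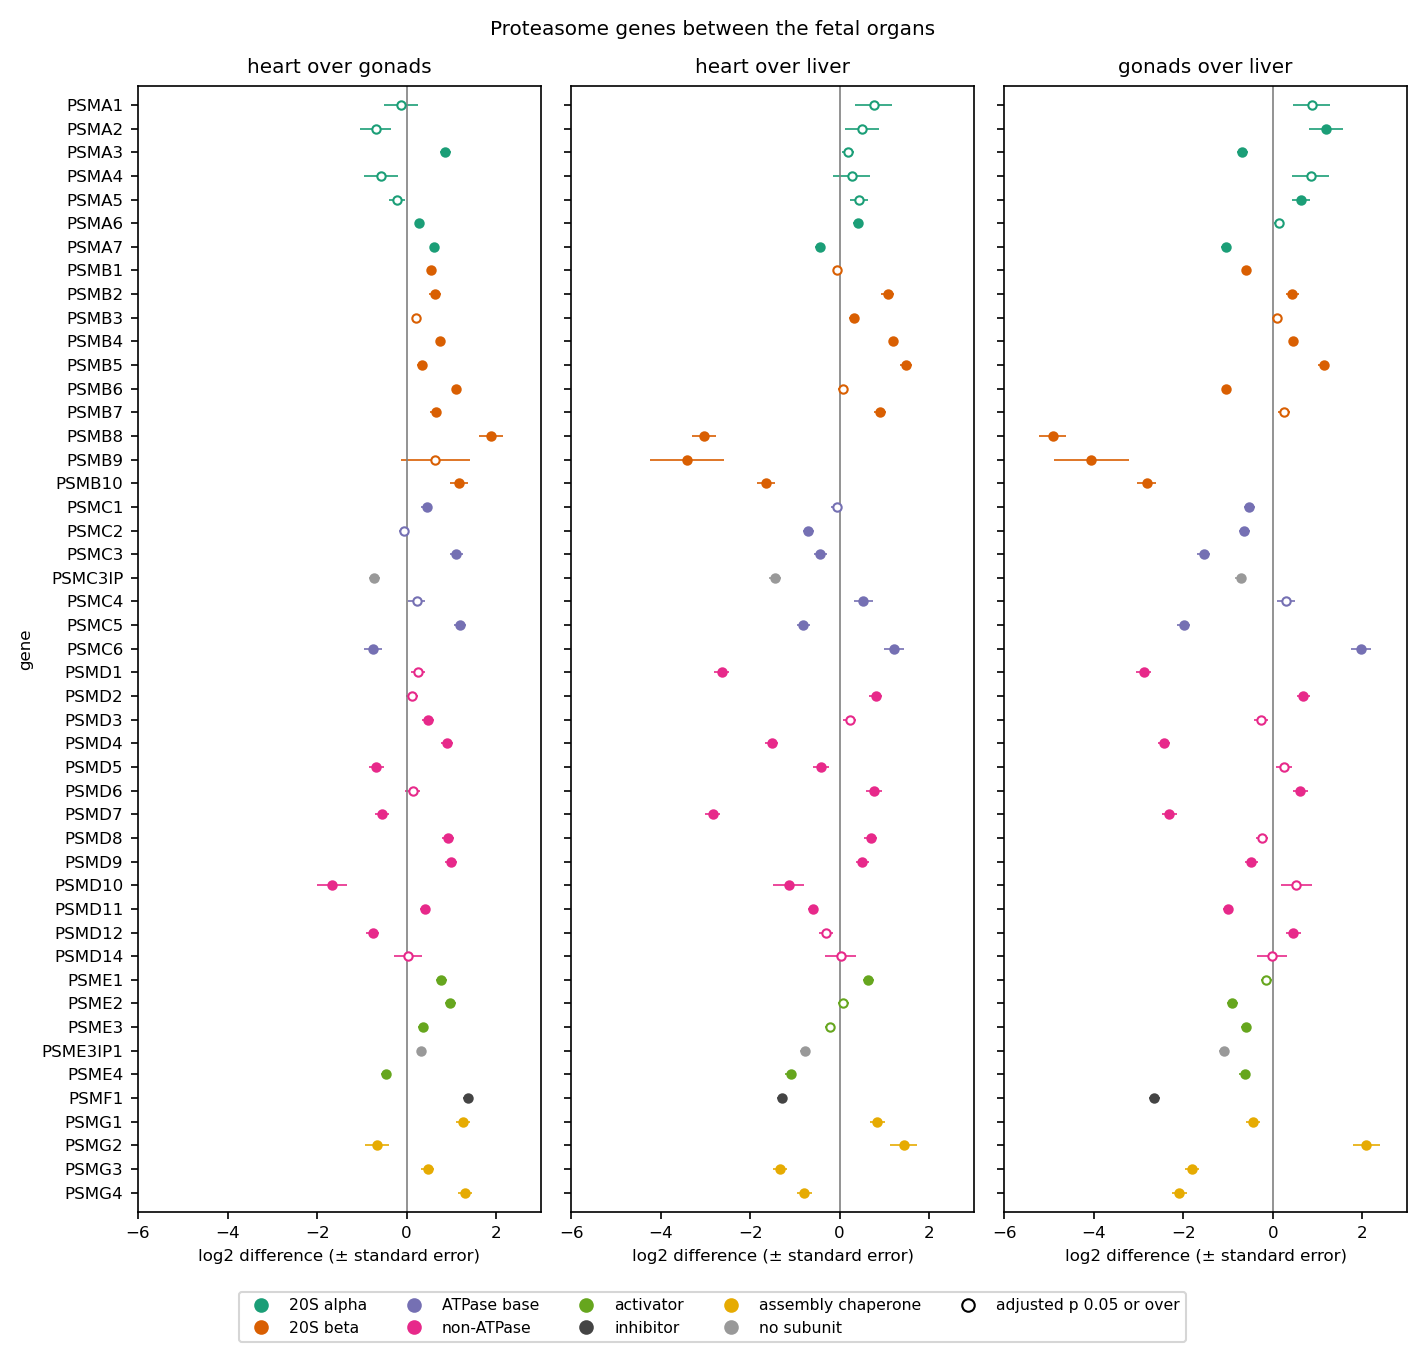
Log2 difference between fetal organs (horizontal axis, ± standard error, edgeR) for 47 proteasome genes (vertical axis), coloured by their place in the proteasome. Filled points passed an adjusted p under 0.05, and PSMA8 and PSMB11, nearly without counts, are left out. The 3 immunosubunits (PSMB8, PSMB9 and PSMB10) and PSMD1, PSMD4, PSMD7 and PSMF1 lie far to the left in the liver comparisons, while PSMC6 and PSMG2 lie to the right; on nuclear totals every point of the first panel moves to the left with the median gene (−0.48), and the 14 points between 0.03 (PSMD14) and 0.48 (PSMD3) change sign.

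In the alpha ring of the core, 3 of 8 genes were higher in the heart than in the gonads and none lower (backgrounds 23.7% and 23.4%). On nuclear totals 1 was higher (PSMA3) and 3 were lower (backgrounds 15.4% and 37%), and such counts rest on few genes. PSMA3 lay between 125 and 209 CPM in the heart (median 177) and between 65.1 and 113 CPM in the gonads (median 93.9), a 1.82-fold difference without overlap (log2 0.86 ± 0.122 SE, adjusted p = 1.16e-06, edgeR). PSMA7 was highest in the liver, with 154 to 317 CPM (median 200) against 92.5 to 119 CPM in the gonads (median 102), 2.06-fold (log2 −1.05 ± 0.112 for gonads over liver, adjusted p = 4.99e-09, edgeR). PSMA2 went the other way: its 43.8 CPM median in the gonads was above the 18.3 CPM of the liver, 2.28-fold (adjusted p = 0.00889, edgeR), although the gonad library of fetus 1 held only 4.92 CPM. PSMA1 showed the largest difference between heart and liver in the ring, 0.76 ± 0.417, which did not pass (adjusted p = 0.121, edgeR).

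Among the beta subunits, 8 of 11 were higher in the heart than in the gonads and none lower (backgrounds 23.7% and 23.4%). On nuclear totals 4 were higher and 1 was lower (PSMB3), against backgrounds of 15.4% and 37%. The constitutive subunits PSMB2 and PSMB4, which carry no cutting site, and PSMB5, the chymotrypsin-like site, were lowest in the liver. PSMB5 had 18.4 to 35.1 CPM in the liver (median 26.7), 48.9 to 69.2 CPM in the gonads (median 61.8) and 59.2 to 93.3 CPM in the heart (median 75.4). Every liver sample thus lay below every other organ library, 2.78-fold below the heart (log2 1.48 ± 0.126, adjusted p = 6.94e-11, edgeR) and 2.2-fold below the gonads (log2 1.14 ± 0.124, adjusted p = 7.51e-09, edgeR). PSMB4 differed between heart and liver by 2.3-fold and PSMB2 by 2.1-fold.

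PSMB6, the caspase-like site, did not follow PSMB5. It had 85.2 to 128 CPM in the heart (median 96.8), 80.8 to 120 CPM in the liver (median 86.9) and 42 to 58.3 CPM in the gonads (median 43.8). Heart and liver overlapped and their difference did not pass (log2 0.07 ± 0.105, adjusted p = 0.597, edgeR), whereas both lay above every gonad library, the heart by 2.16-fold (adjusted p = 3.03e-10) and the liver by 2.06-fold (adjusted p = 1.35e-09, edgeR). PSMB7, the trypsin-like site, was 1.87-fold higher in the heart than in the liver (adjusted p = 4.05e-06, edgeR). PSMB3 showed the smallest heart over gonads difference of the subgroup, 0.22, and did not pass. On nuclear totals it was lower in the heart (log2 −0.26, adjusted p = 0.027, edgeR).

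The immunosubunits were highest in the liver. PSMB8 had 8.99 to 27 CPM in the liver (median 16.3), 1.49 to 2.74 CPM in the heart (median 2.11) and 0.235 to 0.895 CPM in the gonads (median 0.519). None of the 3 ranges overlapped, and the liver was 30.2-fold above the gonads (log2 −4.92 ± 0.3 for gonads over liver, adjusted p = 5.86e-14) and 8.17-fold above the heart (log2 −3.03 ± 0.278 for heart over liver, adjusted p = 3.06e-10, edgeR). Heart exceeded gonads by 3.7-fold (log2 1.89 ± 0.264, adjusted p = 9.22e-07, edgeR).

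PSMB10 was measured on far more reads. It had 106 to 187 CPM in the liver (median 129), 21.8 to 69.5 CPM in the heart (median 43.3) and 12.2 to 30.1 CPM in the gonads (median 20), a 7.06-fold difference between liver and gonads (adjusted p = 5.1e-12) and 3.13-fold between liver and heart (adjusted p = 1.06e-07, edgeR). The liver samples lay above all others, while heart and gonads overlapped but still differed by 2.25-fold (adjusted p = 1.37e-05, edgeR).

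PSMB9 was close to the limit of detection outside the liver. It held 21 to 68 counts in each liver sample, 0 to 12 in each heart library and 0 to 10 in each gonad library, and was at 0 in 3 heart and 3 gonad libraries. Liver was above both (log2 −3.41 for heart over liver, adjusted p = 0.000957, and −4.05 for gonads over liver, adjusted p = 0.000148, edgeR). No difference between heart and gonads could be seen at this depth (log2 0.64 ± 0.766).

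The ratio of each immunosubunit to the constitutive subunit it replaces, taken within a library on counts + 0.5, needs no scaling between libraries. The log2 ratio of PSMB8 to PSMB5 ran from −1.88 to 0.14 in the liver (median −0.72), from −5.79 to −4.67 in the heart (median −5.17) and from −7.83 to −6.17 in the gonads (median −6.53). In other words PSMB8 took 21.3% to 52.4% of the counts of the pair in the liver, 1.76% to 3.75% in the heart and 0.422% to 1.35% in the gonads. The groups did not overlap, and the mean differences were −4.46 (heart over liver), −6.14 (gonads over liver) and 1.68 (heart over gonads), each with an adjusted p of 0.000157 over 9 two-sided exact permutation tests. These tests ignore that organs share fetuses. Sign flips of the within-fetus differences (8 fetuses for heart and gonads, 6 with the liver) gave an adjusted p of 0.0402 for each. The differences of the other 2 ratios to the liver gave the same. All of these stood at the smallest p that the sign flips allow.

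The ratio of PSMB10 to PSMB7 was higher in every liver sample than in any heart or gonad library. These are raw counts without correction for transcript length, so a ratio is read between libraries and not as the balance of the subunits. The log2 ratio was 0.79 to 1.98 in the liver (median 1.24), −2.67 to −0.02 in the heart (median −1.24) and −2.54 to −0.99 in the gonads (median −1.73). The liver differed from the heart by −2.61 and from the gonads by −3.12 (adjusted p = 0.000157 for both, exact permutation), and heart and gonads overlapped (0.51, adjusted p = 0.125, exact permutation). PSMB9 took at most 5.09% of the counts of its pair with PSMB6 in the liver, 0.429% in the heart and 0.46% in the gonads. The differences of its ratio to the liver, −3.95 for the heart (adjusted p = 0.000262, exact permutation) and −3.75 for the gonads (adjusted p = 0.000562, exact permutation), shrank to −2.47 and −2.41 when 5 counts were added in place of 0.5, and passed with both.

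**Figure D2:**
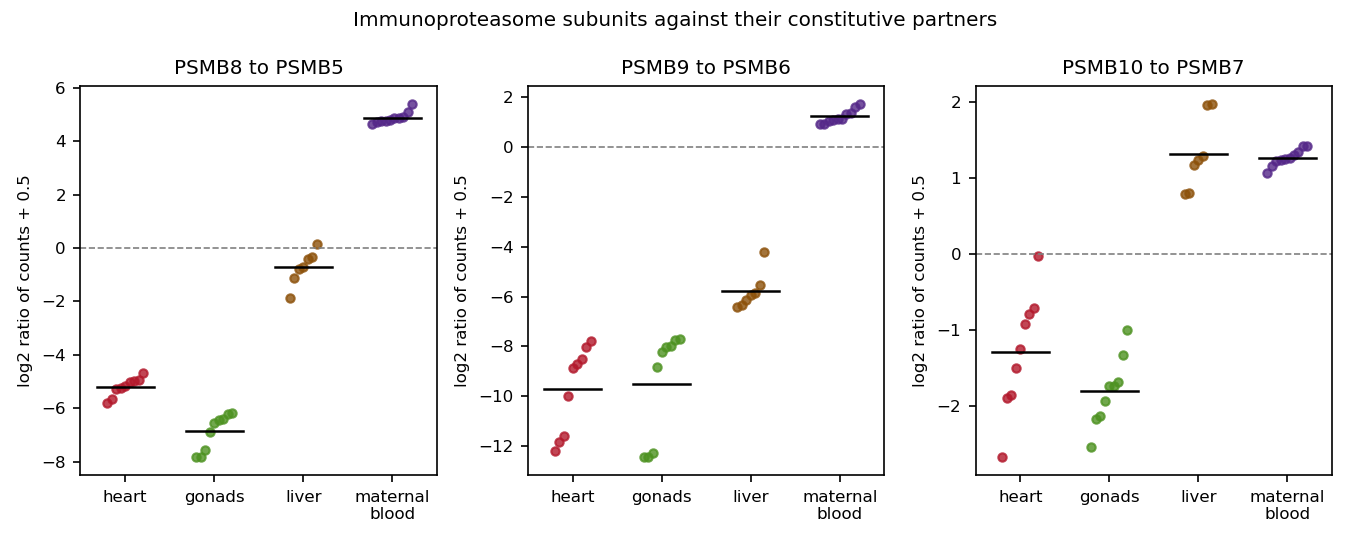
Log2 ratio of counts + 0.5 (vertical axis) of each immunosubunit to the constitutive subunit it replaces, in each library (points) of the 4 tissues (horizontal axis), with the mean as a bar and equal raw counts, uncorrected for transcript length, as a dashed line. In each pair maternal blood and liver stand above heart and gonads, and the low points of PSMB9 in heart and gonads are libraries with 0 counts of it.

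In maternal blood the immunosubunits took most of the raw counts of each pair, a share that can be compared between libraries only. PSMB8 had 318 to 454 CPM (median 366, scaled over the blood libraries alone), its constitutive partner PSMB5 10.7 to 15.5 CPM (median 12.9), and PSMB8 made up 96.1% to 97.7% of the pair. PSMB9 made up 65.7% to 77% of its pair and PSMB10 67.7% to 72.8%. The log2 ratio of PSMB8 to PSMB5 in blood was 4.63 to 5.4, above every organ library. Tissue, animal and kit all differed here and cannot be told apart.

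Summed markers of blood cells were also highest in the liver among the organs, on the same scale as the members. The 12 leukocyte markers summed to 68.7 to 130 CPM in the liver, 14.5 to 20.3 CPM in the heart and 13 to 16.9 CPM in the gonads, with none at 0 throughout, and to 8960 to 10300 CPM in blood on its own scale. Of the 12, 7 were lower in the heart than in the liver (background 30.4%) and 8 in the gonads (33.7%), with 0 higher. CD14 held 29 to 68.3 CPM of the liver sum. PTPRC was level (medians of 2.89 CPM in the liver, 2.84 in the heart and 1.93 in the gonads), and CD3E was lowest in the liver (0.208, 0.506 and 0.739). The 9 erythroid markers summed to 4290 to 6640 CPM in the liver against 85.9 to 185 CPM in the heart and 22.9 to 64.8 CPM in the gonads. The part of these cells in the liver values was not tested.

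Of 24 tested genes of antigen presentation and interferon response, the known company of the immunoproteasome, 15 were lower in the heart than in the liver and 2 higher (backgrounds 30.4% and 26.9%), and 17 were lower in the gonads than in the liver and 1 higher (33.7% and 29.9%). Their median log2 differences were −1.32 and −1.57. B2M, the light chain of class I molecules, was lower in the heart by 1.67 and in the gonads by 2.71 on the log2 scale, and TAPBP, the chaperone that loads their peptides, by 0.64 and 2. Between heart and gonads, 6 were higher and 6 lower, near the backgrounds of 23.7% and 23.4%.

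The regulatory particle was uneven. Among the 6 ATPases, which form 1 ring and are needed in equal numbers, PSMC5 and PSMC6 moved in opposite directions in every comparison. PSMC5 had 159 to 297 CPM in the liver (median 205), 117 to 134 CPM in the heart (median 125) and 38.8 to 87.6 CPM in the gonads (median 54.5). PSMC6 had 12.6 to 29.2 CPM in the liver (median 18.2), 20.9 to 86.8 CPM in the heart (median 38.1) and 43.2 to 95.3 CPM in the gonads (median 69.5). Gonads and liver did not overlap for either gene: PSMC5 was 3.98-fold higher in the liver (log2 −1.99 ± 0.139 for gonads over liver, adjusted p = 9.75e-13) and PSMC6 3.91-fold higher in the gonads (log2 1.97 ± 0.232, adjusted p = 2.93e-08, edgeR). PSMC3 followed PSMC5, with 2.9-fold more in the liver than in the gonads and 2.15-fold more in the heart than in the gonads.

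Of 13 non-ATPase genes tested, 6 were lower and 4 higher in the heart than in the liver (backgrounds 30.4% and 26.9%). PSMD1, the large scaffold of the base, had 461 to 980 CPM in the liver (median 753) against 91.2 to 162 CPM in the heart (median 111) and 80 to 115 CPM in the gonads (median 95.8). All liver samples stood above all others, 6.21-fold above the heart (log2 −2.63 ± 0.167 for heart over liver, adjusted p = 1.45e-13) and 7.38-fold above the gonads (log2 −2.88 ± 0.168, adjusted p = 2.29e-14, edgeR). PSMD2, the other large scaffold, was 1.76-fold higher in the heart and 1.6-fold higher in the gonads than in the liver, where it had 35.3 to 79.5 CPM (median 54.2).

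PSMD7, a lid subunit, had 176 to 331 CPM in the liver (median 241), 18.7 to 50.1 CPM in the heart (median 31.6) and 33.2 to 58.8 CPM in the gonads (median 50.6), and was 7.18-fold above the heart (log2 −2.84 ± 0.171 for heart over liver, adjusted p = 4.44e-14, edgeR). PSMD14, the deubiquitinase with which PSMD7 forms a pair in the lid, showed no such difference: its median was 35.2 CPM in the liver, 34.1 in the heart and 36.8 in the gonads, with log2 differences of at most 0.03 and standard errors of at least 0.315. On nuclear totals its differences were −0.44 for heart over gonads, 0.2 for heart over liver and 0.64 for gonads over liver, and none passed. PSMD4, the ubiquitin receptor, had 397 to 680 CPM in the liver (median 519), 132 to 221 CPM in the heart (median 201) and 76.8 to 141 CPM in the gonads (median 96.9), without overlap between liver and either organ (2.87-fold and 5.38-fold, adjusted p = 3.63e-10 and 3.07e-14, edgeR).

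PSMD5, PSMD9 and PSMD10 are named as subunits but are chaperones that help to build the base. They did not move together either. PSMD9 was 1.99-fold higher in the heart than in the gonads (adjusted p = 1.31e-06), and PSMD10 3.18-fold lower (4.62 to 18.8 CPM in the heart, median 10.6, against 3.07 to 58.3 CPM in the gonads, median 29.7, log2 −1.67 ± 0.328, adjusted p = 0.000113, edgeR). The lowest gonad value of PSMD10 came from fetus 1, and its other gonad libraries lay above all heart libraries. PSMD10 was also 2.21-fold lower in the heart than in the liver (adjusted p = 0.00575), a call that was lost with the fetus as a replicate block (log2 −0.95, adjusted p = 0.0541, edgeR).

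The activators differed from each other. PSME1 and PSME2, whose products form the interferon-inducible cap on the core, were 1.72-fold and 1.97-fold higher in the heart than in the gonads (adjusted p = 2.8e-06 and 6.17e-08, edgeR). PSME1 was also 1.56-fold higher in the heart than in the liver, whereas PSME2 did not differ detectably there (log2 0.08 ± 0.124). PSME4, a large nuclear activator, was lowest in the heart, with 39.2 to 57.2 CPM (median 49) against 86.2 to 126 CPM in the liver (median 93.8), 2.13-fold (adjusted p = 9.96e-09, edgeR). PSMF1, an inhibitor of the core, had 65.8 to 121 CPM in the liver (median 93.7), 33.2 to 41.6 CPM in the heart (median 35.2) and 11.1 to 20 CPM in the gonads (median 13.8), 3 ranges without overlap and a 6.28-fold step from gonads to liver (log2 −2.65 ± 0.124, adjusted p = 1.91e-16, edgeR).

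The 4 chaperones that build the core work as pairs. PSMG3 and PSMG4 were both highest in the liver, PSMG4 with 132 to 245 CPM (median 177) against 29.8 to 70.7 CPM in the gonads (median 45.6), 4.26-fold (adjusted p = 1.83e-11, edgeR), and PSMG3 3.48-fold. PSMG1 and PSMG2, the other pair, went in opposite directions between heart and gonads. PSMG1 was 2.42-fold higher in the heart than in the gonads (60.4 to 168 against 38.5 to 65.1 CPM, adjusted p = 1.25e-07, edgeR), while PSMG2 had 4.17 to 17.8 CPM in the heart (median 8.4), a median of 11.9 CPM in the gonads and 1.36 to 5.35 CPM in the liver (median 2.76), 4.26-fold less in the liver than in the gonads (adjusted p = 1.05e-06, edgeR).

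Of the 2 genes that are no subunits, PSMC3IP, a cofactor of meiotic recombination, was 2.72-fold higher in the liver than in the heart, and PSME3IP1 2.14-fold higher in the liver than in the gonads (adjusted p = 2.85e-10 and 1.54e-10, edgeR). PSMB11, the subunit of thymic epithelium, was called higher in the liver, but on 1 sample: the merged liver sample of fetuses 1 and 2 held 161 counts, the other liver samples at most 1, and without that sample the direction turned (log2 1.88 or 1.84 for heart over liver). A heart library (fetus 3) held 20 counts. The annotated spans of PSMB11 and PSMB5 overlap, and the reads of the genes may not be separable.

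Of 28 proteasome-associated genes outside the rule, such as further subunits and the enzymes that supply ubiquitin, 12 were higher and 9 lower in the heart than in the gonads (backgrounds 23.7% and 23.4%), 6 and 10 against the liver (26.9% and 30.4%), and 10 and 11 were higher and lower in the gonads than in the liver (29.9% and 33.7%). SEM1 and ADRM1, subunits that the symbol rule misses, were both higher in the liver, by 1.09 and 1.38 on the log2 scale over the heart and by 1.82 and 1.88 over the gonads. POMP, which matures the core, passed in no comparison (log2 −0.37 for gonads over liver, adjusted p = 0.0609, and −0.16 for heart over liver, adjusted p = 0.446, edgeR). NFE2L1, the transcription factor that drives subunit genes when proteasomes are short, was highest in the heart, by 1.46 over the gonads and 0.58 over the liver.

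Within a tissue, the median member varied less than the median gene. The genes were not matched to the members for level, on which the SD of log2 CPM depends, so this does not set the members apart. The median SD of log2 CPM between animals was 0.26 for the heart (0.36 over all genes tested there), 0.23 for gonads (0.29), 0.35 for liver (0.46) and 0.17 for maternal blood (0.29). An SD over 0.5 was reached by 9 of 46 heart members (29.1% of all genes did so), 5 of 46 gonad members (21%), 11 of 47 liver members (44.5%) and 0 of 47 blood members (30.8%). PSMA2, PSMA4 and PSMD14 were among them in all 3 organs, and PSMA1, PSMD10 and PSMG2 in at least 1. Levels from here on are CPM scaled within the tissue.

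Departures of at least 2-fold from the tissue median were taken on edgeR's log2 CPM with a prior count of 2, which damps low genes. In the gonads 4 members departed, all in fetus 1, with 7.54 CPM of PSMA2 where the others had 61.4 to 114, 14.6 CPM of PSMA4 (others 65.4 to 160), 4.71 CPM of PSMD10 (34.5 to 97) and 6.7 CPM of PSMD14 (32.7 to 96.3). These 4 of 46 members stand beside 8.46% of all genes that low in the same library, so the share of members was near the background. On plain CPM PSMB8 was also over 2-fold below its gonad median of 0.823 in fetuses 3 and 5 (0.399 and 0.385 CPM). In the liver, PSMA1, PSMA4, PSMD8 and PSMD14, 4 of 47, were low in fetus 8 (7.6% of all genes), again near the background, and PSMB9 was the 1 member high in fetus 4. In the heart, PSMA1, PSMA2, PSMA4, PSMC6 and PSMG2 were high in fetus 10 (6.27% of all genes) and PSMB10 low (4.15%). PSMA1 and PSMA4 were low in fetuses 1, 2 and 4 (6.12%, 5% and 2.96% of all genes), with PSMA2 low in fetus 2 too, and PSMA1 and PSMD10 were low in fetus 5 (5.45%).

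**Figure D3:**
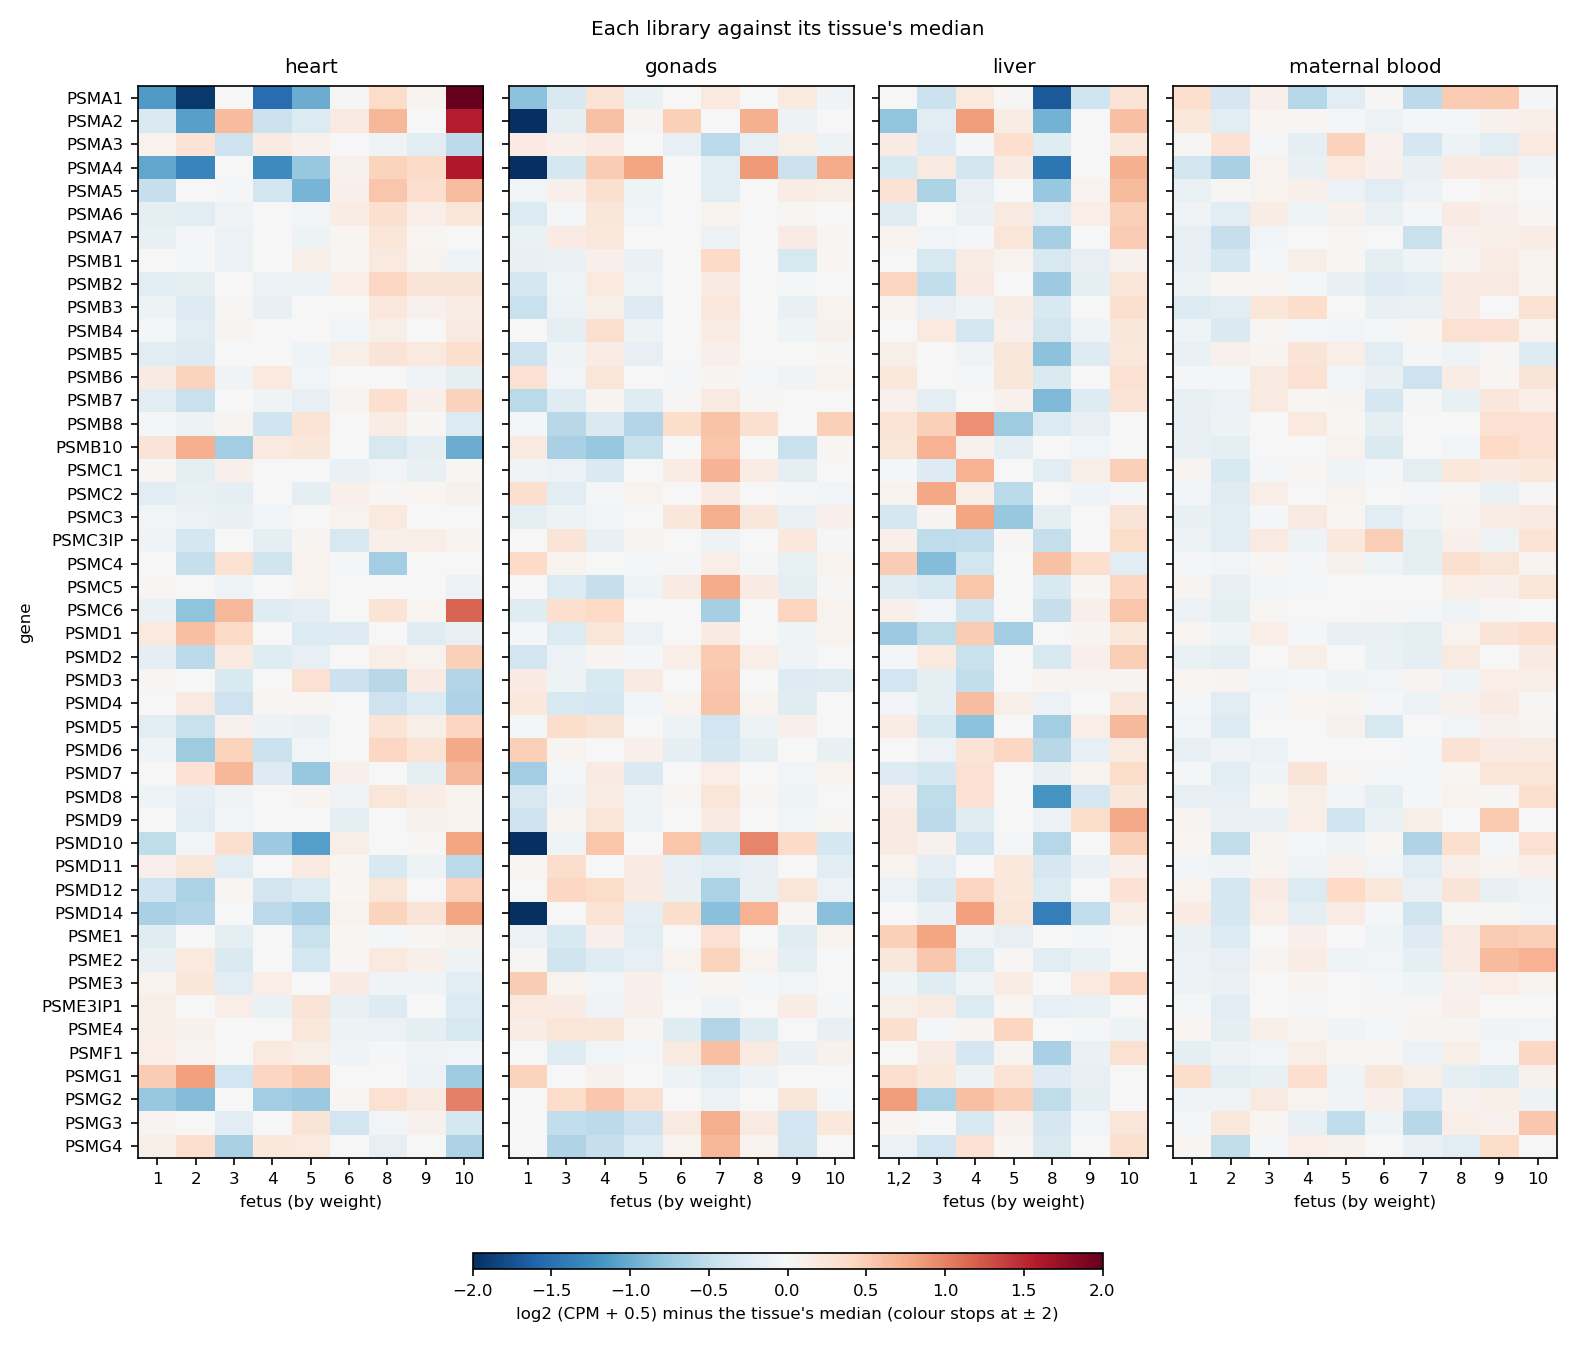
Each library (columns, fetuses by weight from light to heavy within each tissue) for 46 proteasome genes (rows), as log2 of CPM + 0.5 minus the median of the gene in that tissue; blue is lower and red higher. The strongest colours belong to few genes (PSMA1, PSMA2, PSMA4, PSMD10, PSMD14 and PSMG2) and few libraries (heart of fetuses 2 and 10, gonads of fetus 1, liver of fetus 8), and maternal blood is pale apart from PSME1 and PSME2 in fetuses 9 and 10.

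Along fetal weight, a linear term (log2 units per 0.1 g, edgeR within each tissue) and a spline were tested where at least 4 libraries held 10 counts or more, which left 46 members in heart and gonads and 47 in liver and blood. In the heart, 6 members rose at an adjusted p under 0.05 (13%, against 5.22% of all 16250 genes) and 0 fell (background 1.54%). At an unadjusted p under 0.05 there were 16 rising (34.8% against 16.4%) and 6 falling (13% against 12.7%). The spline gave 7 at an unadjusted p (15.2% against 7.99%) and 0 after adjustment, as for all genes.

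PSMA4 had the smallest p of the heart members. It had 11.4 to 90.1 CPM (median 29.2), 14 in fetus 1 and 90.1 in fetus 10, a slope of 0.54 ± 0.0953 (adjusted p = 0.0395). PSMA1 rose from 12.3 CPM in fetus 1 to 124 CPM in fetus 10, with its lowest value, 6.88 CPM, in fetus 2 (slope 0.66 ± 0.134, adjusted p = 0.0395), PSMD14 from 16.4 to 45.5 CPM (slope 0.3 ± 0.0553, adjusted p = 0.0395, edgeR) and PSMG2 from 3.57 to 13.4 CPM (slope 0.37 ± 0.0742, adjusted p = 0.0395, edgeR). The heaviest fetus was the highest for all of these. The 2 called cutting subunits changed less, PSMB7 by 0.15 and PSMB5 by 0.12 per 0.1 g (adjusted p = 0.0464 and 0.0494, edgeR). Their immunosubunits did not join them: PSMB10 had a slope of −0.23 ± 0.0794 (adjusted p = 0.0921), from 39.7 CPM in fetus 1 to 16.4 in fetus 10, and PSMB8 of −0.01 ± 0.0802.

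The share of mitochondrially encoded counts moved with weight in the same heart libraries. It was 45.1%, 57.3%, 23.5%, 41.5%, 40.8%, 39%, 25.5%, 28.5% and 17.1% in fetuses 1 to 6 and 8 to 10. With that share as a covariate, 0 of the 6 members passed after adjustment and the slope of PSMA1 was 0.27 (adjusted p = 0.636), with the transfer group as a covariate 0 passed (PSMA1 0.56, adjusted p = 0.699), and on nuclear totals 0 passed although the slopes hardly moved (PSMA1 0.67, adjusted p = 0.0703, edgeR). Leaving out fetus 1, 2, 4, 5, 8 or 10 left 0 members rising, and leaving out fetus 6, 9 or 3 left 4, 9 and 14. At an unadjusted p the share of all genes rising moved too, from 7.35% without fetus 10 to 21.1% without fetus 3. Without fetus 10 the slopes of PSMA1 and PSMA4 were both 0.41 (adjusted p = 0.37 and 0.354, edgeR).

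**Figure D4:**
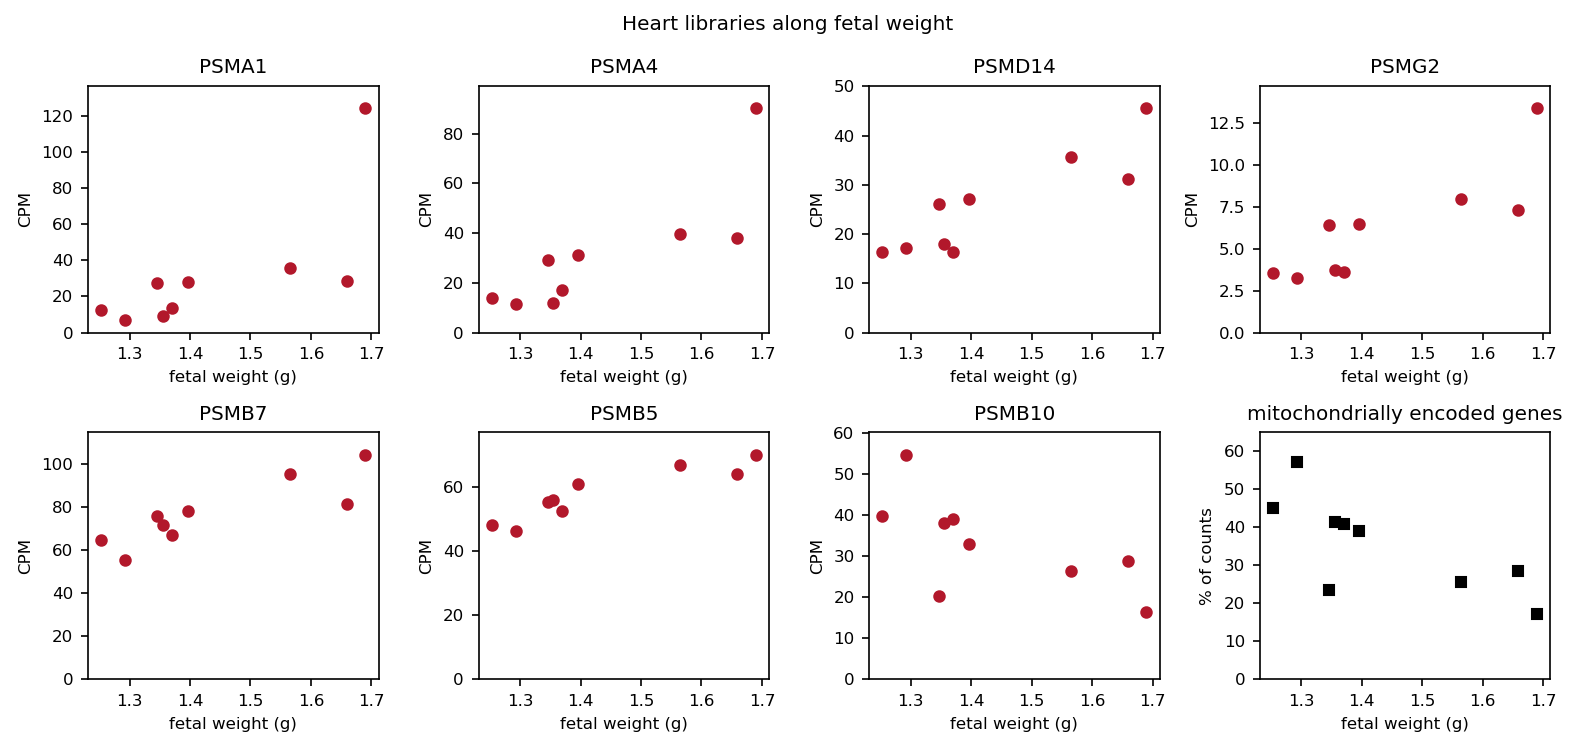
CPM (scaled within the heart) of the 6 members that rose with fetal weight (horizontal axis, g), of the immunosubunit PSMB10, and the share of mitochondrially encoded counts in the same 9 libraries. Fetus 10 at 1.69 g holds the highest value of each of the 6, PSMA1 reaches 124 CPM there, and fetus 3 at 1.346 g, whose mitochondrial share is 23.5%, stands above its neighbours for PSMA1, PSMA4, PSMD14 and PSMG2.

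In the gonads, no member passed the linear test, with or without adjustment (backgrounds 2.38% rising and 3.24% falling at an unadjusted p). The smallest p belonged to PSMD6, with 74.7 CPM in fetus 1 and 48.5 in fetus 10 (slope −0.1 ± 0.048, adjusted p = 0.849), followed by PSMB7 (0.09 ± 0.0478, adjusted p = 0.854) and PSMB8 (0.26 ± 0.147, adjusted p = 0.857, edgeR). The spline gave 9 members at an unadjusted p (19.6% against 12.6%) and 0 after adjustment, led by PSMA2 (adjusted p = 0.178) and PSMD10 (adjusted p = 0.237, edgeR), 2 of the genes whose library of fetus 1 was far below the others.

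In the liver, no member passed the linear test either, unadjusted (backgrounds 4.04% rising and 8.76% falling) or adjusted (0.148% and 1.44%). This depended on the model. With the transfer group as a covariate, 42 of 47 slopes were positive, against 25 without it. At an unadjusted p, 5 members then rose (3.39% of all genes) and 0 fell (0.931%). The median member slope was 0.312 with the covariate (0.014 over all genes) and 0.005 without it (−0.012). The cause was not tested. PSMD9 had the smallest p, 16 CPM in the merged sample of fetuses 1 and 2 (placed at their mean weight, 1.273 g) and 24.1 in the heaviest (slope 0.17 ± 0.0828, adjusted p = 0.458), followed by PSME3 (0.1 ± 0.051, adjusted p = 0.463) and PSMD3 (0.1 ± 0.0531, adjusted p = 0.48, edgeR). The spline gave 7 members at an unadjusted p (14.9% against 10.6%) and 0 after adjustment (1.71% of all genes), led by PSMA4 (adjusted p = 0.132) and PSMA1 (adjusted p = 0.248, edgeR). Across the liver, 333 genes were nearly absent from some fetuses and above a high count cut in all the rest, and no member was among them. PSMB11, with 161 counts in the merged sample of fetuses 1 and 2 and at most 1 in each other liver sample, stayed below that cut.

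In maternal blood the slopes were small and mostly of 1 sign. Of 47 members, 40 had a positive slope along the weight of the carried fetus (85.1%, against 50.9% of all 16284 genes), 10 of them at an unadjusted p under 0.05 (21.3% against 4.53%), and 0 had a negative one at that p (5.16%). None passed after adjustment, as none of all genes did (edgeR), and members in 1 blood library are not independent of each other. Leaving out each animal in turn left between 5 (without fetus 10) and 14 (without fetus 7) at an unadjusted p, and 0 with a negative slope in every case. The share of all genes rising moved too, from 2.09% without fetus 10 to 5.56% without fetus 7. The spline gave 5 members at an unadjusted p (10.6% against 9.77%) and 0 after adjustment (0.129% of all genes).

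The activator cap led the list. PSME2 had 43.4 to 79.9 CPM (median 49.3), with 76.7 in the carrier of fetus 9 and 79.9 in that of fetus 10 (slope 0.17 ± 0.0394, unadjusted p = 0.00103, adjusted p = 0.358, edgeR). PSME1 had 260 to 446 CPM (median 315), again highest for fetuses 9 and 10 (slope 0.14 ± 0.0354, adjusted p = 0.358, edgeR). In the other 8 animals PSME2 lay between 43.4 and 55 CPM, with the lowest value for fetus 7. PSMB10 (0.11 ± 0.0325, adjusted p = 0.404) and PSMB8 (0.09 ± 0.0295, adjusted p = 0.422, edgeR) had their 2 highest values in the same animals, while PSMB5, at 10.7 CPM in the carrier of fetus 10, had its lowest value there (slope −0.04 ± 0.0427). DESeq2's Wald test, the other test tried, called PSME2 alone (adjusted p = 0.0373).

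The leukocyte marker sum moved with weight in the same blood samples. The 12 leukocyte markers summed to 8960 to 9330 CPM in the carriers of fetuses 1 to 5 and to 9620 to 10300 CPM in those of fetuses 6 to 10. The 9 erythroid markers summed to 229 and 345 CPM in the carriers of fetuses 9 and 10 and to 251 to 9780 CPM in the other 8. The blood of fetuses 2 and 5 also held muscle transcripts, with 10 cardiac and slow muscle markers summing to 3600 and 1210 CPM against a median of 2.77 over the 10 animals. Total counts fell into a lower class (26602415 to 30393051) and a higher one (40516154 to 40812354), with fetuses 9 and 10 in the higher. With the class as a covariate 12 members had a positive slope at an unadjusted p (4.41% of all genes). The part of leukocytes, erythroid cells and muscle RNA in the slopes was not tested. Without fetus 2, or without fetus 5, 6 members had a positive slope at an unadjusted p (3.53% and 3.7% of all genes). Of 24 antigen presentation and interferon genes, 11 had a positive slope in blood at an unadjusted p and 0 a negative one (backgrounds 4.53% and 5.16%). None passed after adjustment (edgeR).

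**Figure D5:**
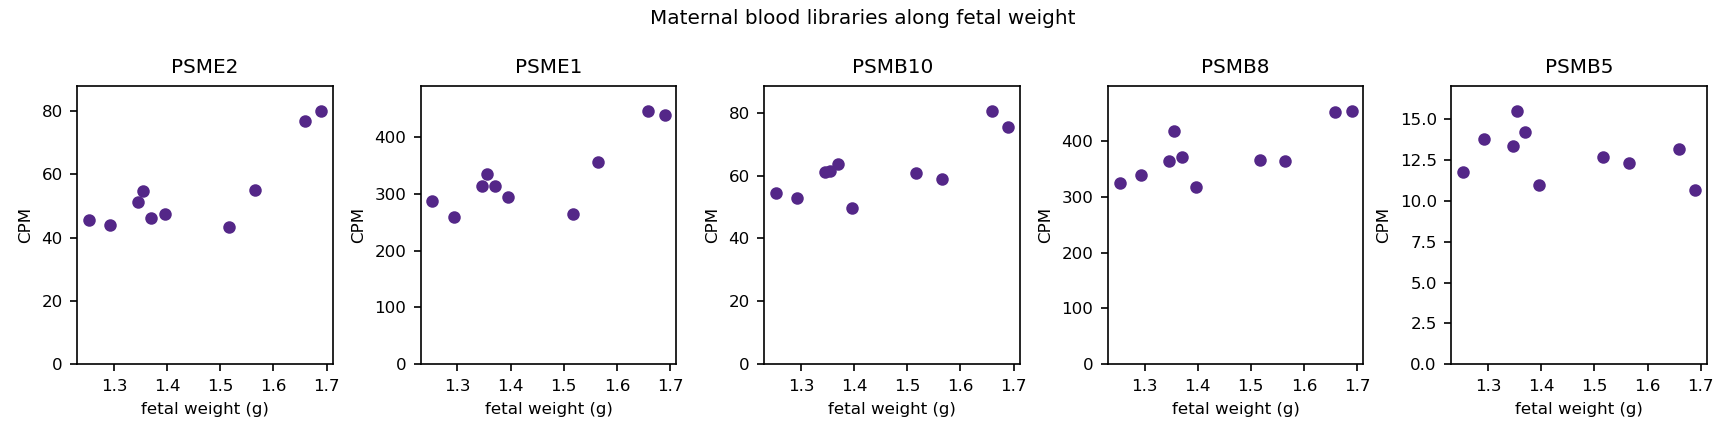
CPM (scaled over the blood libraries) of 5 proteasome genes in maternal blood against the weight of the carried fetus (horizontal axis, g), each point 1 animal. PSME2, PSME1, PSMB10 and PSMB8 are highest in the 2 animals with the heaviest fetuses (PSME2 76.7 and 79.9 CPM), the other 8 lie lower and mixed, and PSMB5 lies between 10.7 and 15.5 CPM.

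The slopes were compared between organs by an organ by weight interaction. PSMA1 rose more steeply in the heart than in the liver (slope difference 0.7 ± 0.177, adjusted p = 0.0148), as did PSMG2 (0.58 ± 0.136, adjusted p = 0.00806, edgeR), 2 of 47 members (4.26%, against 6% of all genes). In the other direction there were 0 (2.09%). None differed between heart and gonads (0% steeper and 0.0166% less steep among all genes) or between gonads and liver (4.31% and 1.31%). With the fetus as a replicate block both calls were lost (0.59, adjusted p = 0.171, and 0.42, adjusted p = 0.256, edgeR). The remaining called heart genes, such as PSMA4 (0.43 ± 0.211, adjusted p = 0.242) and PSMD14 (0.44 ± 0.208, adjusted p = 0.219, edgeR), were not shown to differ from the liver.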

How the data were processed

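RNA-seq libraries of fetal heart, gonads and liver and of maternal blood were analysed. The authors deposited whole-number counts per gene, by their methods and processing notes after FastQC (0.11.9), trimming with Trimmomatic, mapping with STAR (2.7.0b) to bovine ARS-UCD1.3 and counting with featureCounts of Subread (2.0.3). Options for strand and shared reads are not given in the sources used here, so overlapping genes are uncertain. Gene symbols came from a RefSeq table of another build (ARS-UCD2.0), which named 31626 of 35092 identifiers, so no coordinates or sequences are printed.

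Counts were tested with edgeR 4.0.16 (quasi-likelihood, TMM, Benjamini-Hochberg over all genes tested, threshold 0.05) in R 4.3.3. Organs were compared in 1 fit over genes with a count in at least 1 organ library, and weight was fitted within a tissue (linear, or a natural spline with 3 degrees of freedom) over genes that reached 10 counts in 4 or more of its libraries. Slopes were compared between organs over genes that reached 10 counts in 8 or more organ libraries. Ratios of counts + 0.5 were compared by exact permutation of samples. Contrary to the planned 8 liver libraries, those of fetuses 1 and 2 entered once, as rounded mean counts at their mean weight (1.273 g), because of their near identity. Every other sample is 1 animal. Over 145 pairs of libraries of 1 tissue, only this pair was below counting noise at the median gene. Samples of 1 fetus pair the organs. Their deviations from the organ means correlated between −0.28 and 0.34 over 20 pairs, so same-fetus samples did not all deviate together, and the fetus was used as a block in an alternative. Counting intervals were not used, since each value rests on replicates, and counts without molecular identifiers limit precision at low levels.

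On simulated counts with 200 changed genes, a log2 fold change of 1 between heart and liver was recovered for 98.5%, and slopes of 0.3 (log2 per 0.1 g) for 64.5% (heart), 59.5% (gonads), 49% (liver) and 74% (blood). The simulation used the same fixed dispersion for every gene and no differences in composition between libraries. These shares therefore do not measure the power of the fits on the real counts. Alternatives were DESeq2 1.42.0 (Wald test), its size factors, other filters, other scalings, covariates, the block and leaving out each fetus. Named genes were the immunosubunits and their partners, PSMA8, PSMB11, the largest and smallest difference of each subgroup, all called differences over 1 (log2), and for weight the 3 smallest linear and 2 smallest spline p-values per tissue. PSMA1 along weight, and single values of further members, were named after their values were seen. The members and gene lists were chosen with earlier results of these data known.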

Additional observations from a re-analysis of the deposited data

Results flagged for a closer look

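Within each tissue, 186 groups of 7 to 10 values were searched for a single value far from the others (Dixon's criterion at 95%, which chance meets in about 1 of 20 groups), and 18 were found, given here as CPM scaled within the tissue with the nearest other value. In the gonads, 7 of them came from fetus 1, the library with the smallest gonad total (22762065 counts). It was lowest for PSMA2 (7.54 against 61.4), PSMA4 (14.6 against 65.4), PSMD9 (16.8 against 21.2), PSMD10 (4.71 against 34.5) and PSMD14 (6.7 against 32.7), and highest for PSME3 (111 against 83.5) and PSMG1 (99.7 against 77.2). A further 4 came from the gonads of fetus 7, the gonad library with the highest mitochondrial share (7.23%), which was lowest for PSMA3 (106 against 138) and highest for PSMC1 (171 against 118), PSMC3 (253 against 178) and PSMF1 (32.6 against 24.1).

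The remaining 7 were scattered. In the heart, fetus 8 was highest for PSMA7 (146 against 127). In the liver, fetus 8 was lowest for PSMA1 (6.7 against 16.5) and fetus 4 highest for PSMB9 (3.75 against 1.78). In maternal blood, fetus 7 was lowest for PSMD11 (61.4 against 68.6) and PSMG2 (13 against 15.8), fetus 2 lowest for PSME3IP1 (48.3 against 54.1) and fetus 10 highest for PSMF1 (56.6 against 46.1).

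For 2 genes the weight slope differed between organs. PSMA1 was steeper in the heart than in the liver by 0.7 log2 units per 0.1 g and PSMG2 by 0.58, by an interaction term in edgeR (2 of 47 members, 4.26%, against 6% of all genes). Both calls were lost with the fetus as a replicate block (0.59, adjusted p = 0.171, and 0.42, adjusted p = 0.256, edgeR).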

How the results depend on the processing

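Scaling to nuclear totals without TMM changed the organ counts. Members higher and lower became 15 and 14 for heart over gonads and 21 and 16 for gonads over liver. The gonads were highest for 10 (20.4%, against 26.3% of all genes) and lowest for 8 (16.3% against 7.34%), the liver lowest for 15 (30.6% against 25%), and 0 rose with weight in the heart. Differences that passed and changed sign on this scale were, for heart over gonads, PSMA6 −0.2, PSMB5 −0.14, PSMC1 −0.03, PSMD3 −0.01, PSMD11 −0.09, PSME3 −0.12, PSME3IP1 −0.17 and PSMG3 −0.02, and for gonads over liver PSMB1 0.06, PSMC1 0.14, PSMC2 0.02, PSMD9 0.18, PSME3 0.07, PSME4 0.03 and PSMG1 0.22. None of these 15 passed on it. Some differences that had not passed on TMM changed sign and passed on nuclear totals (edgeR). For heart over gonads these were PSMB3 (−0.26, adjusted p = 0.027) and PSMD2 (−0.34, adjusted p = 0.0373). For gonads over liver they were PSMD3 (0.4, adjusted p = 0.0154), PSMD8 (0.42, adjusted p = 0.00835) and PSME1 (0.52, adjusted p = 0.000632). Only differences over 1 (log2) left 8 and 1, 5 and 12, and 4 and 15 members higher and lower, with no share of all genes taken at that cut. Without the liver samples of fetuses 4 and 10 and the gonads of fetus 1, chosen after seeing the data as were nuclear totals and the mitochondrial covariate, the gonads were highest for 5.

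Members rising in the heart numbered 10 with DESeq2's size factors, 16 with its Wald test (4 falling), and 0 with the transfer group or the mitochondrial share as a covariate. Of all genes, 18.7%, 19.6%, 1.54% and 2.49% rose at an unadjusted p with these settings in that order, against 16.4% in the main fit. The heart spline gave 11 at an unadjusted p with those size factors, the liver spline 12 with both near-identical liver libraries kept and, after adjustment, 1 (PSMB11) without the count minimum, and DESeq2 called 1 member rising in blood. The PSMB8 slope in the gonads was −0.15 with the transfer group. With both liver libraries kept, 4 slopes differed for heart over liver and 1 for gonads over liver. Apart from the shifts that the scaling itself makes, the cause was not tested.

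With the fetus as a replicate block, organ counts stayed within 1.5 times except that the heart was lowest for 3 (PSMD5 and PSMD10 lost), and 0 slopes differed for heart over liver. Leaving out 1 fetus at a time gave 1 to 7 members highest in the gonads, 0 to 14 rising and 0 to 6 falling in the heart, −8.56 to 1.88 for PSMB11 heart over liver, −5.98 to 0.7 for gonads over liver, and heart over gonads ratios of −0.79 to 0.29 (PSMB9 to PSMB6) and 0.36 to 0.7 (PSMB10 to PSMB7, adjusted p = 0.0306 without fetus 10, exact permutation). Member counts in this section that stand without a share of all genes have no background under the same setting. Changes in them are therefore not results about the members alone. Depth limited PSMB9, PSMB11 and PSMA8 outside the tissues named above.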
